A study of Mus musculus with 12 samples.

Results

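The 9 genes described here encode the enzymes of the urea cycle (Nags, Cps1, Otc, Ass1, Asl and Arg1), the liver-type glutaminase (Gls2) and the enzymes that make proline from glutamate (Aldh18a1 and Pycr1). They were taken by symbol from the gene column of both deposited count tables, where each of the 9 had 1 row among 23420 genes, by a rule that uses names and no measured value. In the 3 livers lacking both Tsc1 and p62 in hepatocytes, set against the 3 lacking Tsc1 alone, Cps1 was 4.35-fold higher, Gls2 3.10-fold and Asl 2.46-fold higher, whereas Aldh18a1 was 40.5-fold lower and Pycr1 had 0 to 2 counts in Tsc1 and p62 deletion, against 22 to 105 in Tsc1 deletion. In livers lacking p62 alone, no member that could be tested differed from floxed livers past the threshold, which only 0.0159% of 12567 genes passed.

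Bulk poly(A) RNA-seq of mouse liver was deposited for 4 groups of 3 libraries on a C57BL/6 background. Tsc1/p62Δhep mice carried floxed alleles of both p62 (the gene Sqstm1) and Tsc1 with Cre recombinase under the albumin promoter (Alb-Cre), which is active in hepatocytes. Tsc1Δhep mice had floxed Tsc1 with Alb-Cre, p62Δhep mice had floxed p62 with Alb-Cre, and p62F/F mice had floxed p62 with no Cre. The other cells of the liver keep the genes, no Cre-negative mouse with floxed Tsc1 was analysed here, and the presence of Cre cannot be told apart from loss of p62 between p62Δhep and p62F/F. The sources used here do not give the age of the mice or say which had the low-fat or the high-fat diet named in the design text. No label states that each library is a separate animal; p-values therefore reflect only the variation among these samples, which could be technical. p62 is an adaptor of selective autophagy, and the TSC1 protein holds the growth kinase mTORC1 in check.

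The urea cycle disposes of ammonia in periportal hepatocytes. In the mitochondrion, NAGS makes the activator that CPS1 needs, CPS1 joins ammonia and bicarbonate into carbamoyl phosphate, and OTC transfers that group to ornithine to give citrulline. In the cytosol, ASS1 and ASL turn citrulline into arginine, and ARG1 splits arginine into urea and ornithine. GLS2 releases ammonia from glutamine beside CPS1. Proline synthesis leaves from glutamate: ALDH18A1 (P5C synthase) makes the intermediate pyrroline-5-carboxylate, and PYCR1 reduces it to proline.

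Of the 9 members, only the proline synthesis pair was called lower, and the 250 bases before their start sites are shown for that reason. They come from RefSeq's GRCm38.p6, are written 5′ to 3′ on the gene's strand, and lie at chr19:40588464-40588713 for Aldh18a1 and chr11:120643749-120643998 for Pycr1, both on the minus strand. Capitals mark every match to the motifs searched on both strands, TGATGNAA (an element bound by C/EBP and ATF dimers), TTGCNNAA (C/EBP), TGACGT (the core of a CRE) and CACGTG (an E-box).
Aldh18a1: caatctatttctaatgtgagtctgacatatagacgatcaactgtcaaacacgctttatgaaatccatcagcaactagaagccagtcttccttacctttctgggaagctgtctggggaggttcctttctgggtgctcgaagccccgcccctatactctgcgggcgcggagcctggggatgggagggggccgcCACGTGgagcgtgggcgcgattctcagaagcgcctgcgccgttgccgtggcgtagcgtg
Pycr1: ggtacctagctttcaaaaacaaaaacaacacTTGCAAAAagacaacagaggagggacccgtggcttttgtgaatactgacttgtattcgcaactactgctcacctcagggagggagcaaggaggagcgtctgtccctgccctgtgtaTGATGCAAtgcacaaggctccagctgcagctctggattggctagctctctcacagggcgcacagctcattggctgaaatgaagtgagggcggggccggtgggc
The Pycr1 window held TGATGNAA, as TGATGCAA, with its first base 103 bases upstream of the start, and TTGCNNAA, as TTGCAAAA, with its first base 219 bases upstream. The Aldh18a1 window held CACGTG with its first base 59 bases upstream and neither of the C/EBP motifs. Among 32851 RefSeq promoter windows of the same length, 3.452% held TGATGNAA, 9.564% TTGCNNAA, 6.469% TGACGT and 6.021% CACGTG. RefSeq's promoter table held 5 of the 9 members. Of the other 3, Ass1 had CACGTG and Nags and Otc had none of the motifs. These matches are letters in a window, and no binding was measured.

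Library totals were 15792048 to 17809454 counts in Tsc1/p62Δhep, 17492176 to 33377247 in Tsc1Δhep, 17539987 to 25273631 in p62Δhep and 18062844 to 20763224 in p62F/F. The targeted gene Sqstm1 stood at 14.4, 17.4 and 19.6 scaled CPM in Tsc1/p62Δhep, against 1210.0, 789 and 1002 in Tsc1Δhep, and at 17.5, 12.4 and 19.8 in p62Δhep, against 316, 351 and 349 in p62F/F. Scaled CPM are CPM with the library sizes adjusted by TMM within a table. Hepatocyte markers, 9 of 9 with counts, summed to 54094 to 134359 CPM by library totals in the 12 libraries, and those of kidney and muscle were at or near 0. The pancreas markers summed to 7.01 to 41.3 CPM, nearly all of it Cela1. The adipocyte markers summed to 0 to 57.5 CPM, with the highest sum in p62F/F library 2, nearly all of it Cfd. Xist had at most 4 counts and the Y-linked Ddx3y 70.7 to 123 CPM in every library, so no group differed in the presence of a Y chromosome. The ribosomal RNA precursor Rn45s stood at 12134 CPM in Tsc1/p62Δhep library 1, against 751 to 1814 in the other 5 libraries of that table and 19085 to 34959.6 in the p62Δhep and p62F/F table, and its part in the member values was not tested. In bulk tissue, fewer cells of a type and less RNA per cell cannot be told apart.

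The comparison of Tsc1/p62Δhep with Tsc1Δhep asks what loss of p62 went with in livers whose hepatocytes lack Tsc1. In edgeR's quasi-likelihood test over 12620 genes, with p-values adjusted by Benjamini-Hochberg, 6 members were higher (Cps1, Otc, Ass1, Asl, Arg1 and Gls2), 2 were lower (Aldh18a1 and Pycr1) and Nags did not pass an adjusted p below 0.05. Of all genes tested, 9.25% were called higher and 14.9% lower, 24.2% in either direction. In scaled CPM, the libraries of the groups did not overlap for any of the 9, of which 7 lay higher and 2 lower. They did not overlap for 45.7% of all genes, 22.3% higher and 23.4% lower. By library totals, Nags did overlap. Of the 9, Aldh18a1 and Pycr1 passed the filter on low counts only through Tsc1Δhep, and Ass1 only through Tsc1/p62Δhep, so their counts here are a description. Without Tsc1Δhep library 2, Tsc1/p62Δhep library 1 or Tsc1/p62Δhep library 2, the calls were 2 higher (Cps1 and Gls2) and 2 lower, without Tsc1/p62Δhep library 3 they were 4 and 2, and without Tsc1Δhep library 3 they were 5 and 2. With library totals alone as the scaling, which moved the median of all genes to -0.40 on the log2 scale, 4 were higher and 2 lower, and 576 genes were called higher and 3337 lower, against 1167 and 1886 with TMM.

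**Figure D1:**
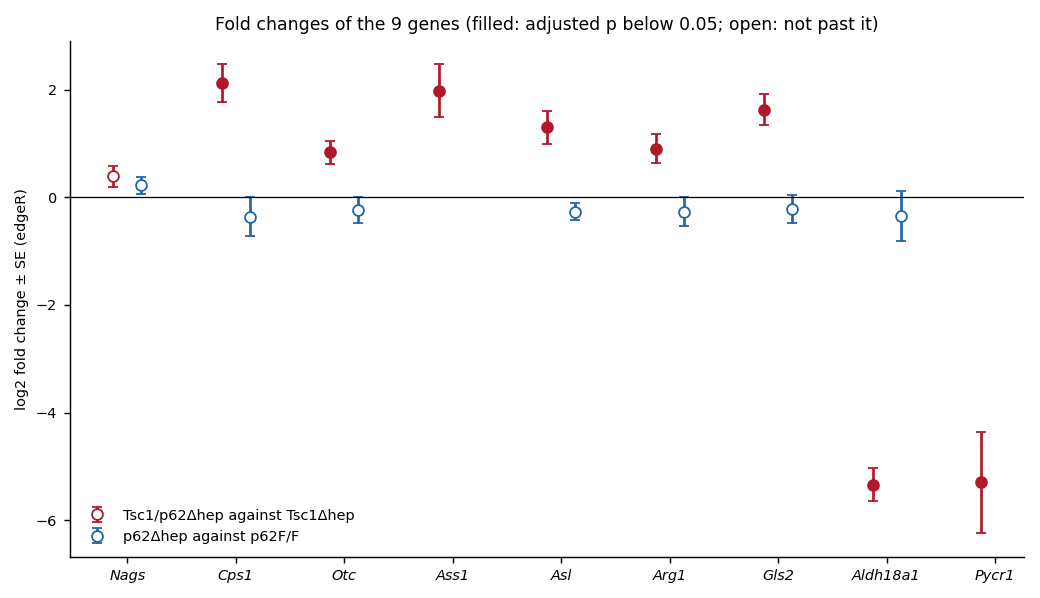
Log2 fold change ± SE (vertical axis) of each of the 9 genes (horizontal axis), Tsc1/p62Δhep against Tsc1Δhep in red and p62Δhep against p62F/F in blue, from edgeR with 3 libraries a group. Filled points passed an adjusted p of 0.05: 8 red points are filled, with Cps1 at 2.12 and Aldh18a1 at -5.34, and no blue point is. Ass1 and Pycr1 were too low to be tested in the blue comparison.

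The mitochondrial steps opened the cycle with unequal changes. Cps1 stood at 6315, 4167 and 2947 scaled CPM in Tsc1/p62Δhep libraries 1 to 3, against 894, 936 and 1259 in Tsc1Δhep. Each Tsc1/p62Δhep library held more than any Tsc1Δhep library, and library 1 held the most. The mean was 4476 ± 1706 in Tsc1/p62Δhep, against 1029.8 ± 199 in Tsc1Δhep (SD, n = 3 each), a log2 fold change of 2.12 ± 0.35 (SE; adjusted p 0.00606). Leaving out each library in turn gave log2 values of 1.80 to 2.36, and the call held each time.

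Otc, an X-linked gene, stood at 1071, 1019 and 1124 scaled CPM in Tsc1/p62Δhep, against 611, 560.4 and 631 in Tsc1Δhep. The spread within each group was small and the groups lay apart. The log2 fold change was 0.83 ± 0.21 (SE), which is 1.78-fold (adjusted p 0.0264). The call was lost without Tsc1Δhep library 2 (adjusted p 0.0924) or Tsc1/p62Δhep libraries 1 (0.106), 2 (0.101) or 3 (0.0749), and with library totals alone as scaling (0.125), while the log2 value stayed between 0.79 and 0.89 over the 6 leave-one-out fits. Nags, which makes the activator of CPS1, stood at 67.5, 58.9 and 64.8 scaled CPM in Tsc1/p62Δhep, against 41.9, 55.2 and 48.6 in Tsc1Δhep. The groups lay apart by a small gap in scaled CPM, with a log2 fold change of 0.39 ± 0.20 (SE; adjusted p 0.175). By library totals they overlapped, at 52.9 to 60.5 CPM in Tsc1/p62Δhep and 44.5 to 61.1 in Tsc1Δhep. The log2 value of Nags ranged from 0.04 to 0.54 over the 15 alternatives run.

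Of the cytosolic enzymes, Asl stood at 1101, 738 and 655 scaled CPM in Tsc1/p62Δhep, against 435, 262 and 316 in Tsc1Δhep. Library 1 was the highest of each group. The log2 fold change was 1.30 ± 0.31 (SE; adjusted p 0.0216), and the call was lost without Tsc1Δhep library 2 (0.0793) or Tsc1/p62Δhep libraries 1 (0.0925) or 2 (0.0665). Arg1, which releases urea, stood at 1555, 1127 and 1077 scaled CPM in Tsc1/p62Δhep, against 841, 583 and 587 in Tsc1Δhep. The lowest Tsc1/p62Δhep library lay above the highest Tsc1Δhep library. The log2 fold change was 0.90 ± 0.27 (SE), 1.87-fold (adjusted p 0.0480). That call held in 1 of 6 leave-one-out fits: the adjusted p was 0.144 without Tsc1Δhep library 2, 0.0520 without Tsc1Δhep library 3, and 0.180, 0.119 and 0.0761 without Tsc1/p62Δhep libraries 1, 2 and 3. With library totals alone it was 0.137.

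Ass1, which commits citrulline to arginine synthesis, was listed at almost no counts. It had 28, 19 and 12 counts in Tsc1/p62Δhep libraries 1 to 3, against 8, 12 and 7 in Tsc1Δhep, and 5, 10 and 9 in p62Δhep, against 11, 5 and 6 in p62F/F. Per kilobase of transcript and by library totals it averaged 0.701 CPM in Tsc1/p62Δhep, where Asl, the enzyme of the next step, averaged 306. In scaled CPM the Tsc1/p62Δhep libraries stood at 1.98, 1.25 and 0.779, against 0.347, 0.325 and 0.329 in Tsc1Δhep, and the log2 fold change was 1.98 ± 0.49 (SE; adjusted p 0.0256). The call was lost without Tsc1Δhep library 2 (0.0881) or Tsc1/p62Δhep libraries 1 (0.144) or 2 (0.0991). It rests on 59 counts in Tsc1/p62Δhep and 27 in Tsc1Δhep in all, a ratio of 3.14 by library totals with an exact 95% Poisson interval of 1.96 to 5.14 that covers counting error only. Ass1 passed the filter on low counts only through Tsc1/p62Δhep, where it is higher, so its call is a description.

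Ass1, on chromosome 2, has a processed pseudogene, Gm5424, on chromosome 10, whose annotated transcript aligned to it over 1240 bases with 1234 identical (99.5%) and no gap. Counted from the first coding base, Ass1's base first, the differences were T399C, T429C, A520T, G656C, T1011C and C1143T. The stretch from position 355 to 429, 75 bases long as the single-end reads of the study, shows 2 of them in capitals.
Ass1: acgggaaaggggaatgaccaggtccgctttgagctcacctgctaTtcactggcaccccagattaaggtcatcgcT
Gm5424: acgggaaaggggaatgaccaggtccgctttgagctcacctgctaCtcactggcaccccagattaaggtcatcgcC
Of the 1622 windows of 75 bases in the Ass1 transcript, 761 (46.92%) occurred unchanged in the 1240-base GENCODE transcript of Gm5424 and 861 did not. RefSeq gives Gm5424 a length of 1550 bases, and bases outside the GENCODE transcript were not compared. The other 8 members shared no such window with another annotated gene. Gm5424 was listed at 0 in all 12 libraries. The Ass1 values are therefore uncertain, and whether the shared sequence bears on the low count was not tested. Exons of Nags overlapped those of an antisense gene, Gm11586, over 15.61% of their bases, and those of Gls2 overlapped Spryd4 on the other strand over 2.79%, and the sources used here do not say whether the counting used strand.

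**Figure D2:**
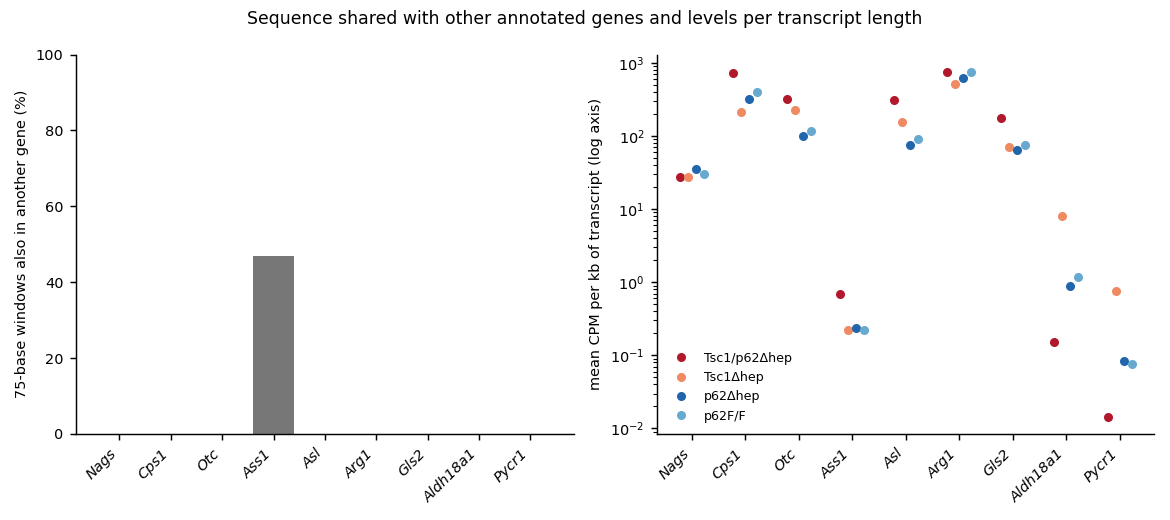
Left, the share of each transcript's 75-base windows that also occur in another annotated gene (percent, GENCODE M21), which is 46.92% for Ass1 and 0 for the other 8 genes. Right, the mean level of each gene per kilobase of transcript (CPM by library totals, log axis) in the 4 groups, where Ass1 lies at 0.222 to 0.701 and Asl at 75.7 to 306.

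Gls2, which supplies the cycle with ammonia from glutamine, stood at 642, 494 and 374 scaled CPM in Tsc1/p62Δhep, against 122, 194 and 172 in Tsc1Δhep. The lowest Tsc1/p62Δhep library lay well above the highest Tsc1Δhep library. The log2 fold change was 1.63 ± 0.30 (SE), 3.10-fold (adjusted p 0.00861), and it held in each leave-one-out fit (1.43 to 1.82).

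Arg1 took at least 99.9% of the counts of Arg1 and Arg2, the mitochondrial arginase, in each of the 12 libraries, where Arg2 had 0 to 13 counts.

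Both proline synthesis enzymes stood lower in Tsc1/p62Δhep than in Tsc1Δhep. Aldh18a1 had 10, 7 and 10 counts in Tsc1/p62Δhep, against 523, 849 and 607 in Tsc1Δhep. In scaled CPM these were 0.706, 0.459 and 0.649 in Tsc1/p62Δhep, against 22.7, 23.0 and 28.5 in Tsc1Δhep. The libraries of each group lay close together, far from those of the other. The log2 fold change was -5.34 ± 0.30 (SE; adjusted p 0.000366), and leaving out each library gave -5.45 to -5.17. Aldh18a1 passed the filter on low counts only through Tsc1Δhep, where it is high, so these values are a description. From the summed counts, 27 in Tsc1/p62Δhep and 1979 in Tsc1Δhep, the level by library totals was 51.1-fold lower in Tsc1/p62Δhep, with an exact 95% Poisson interval of 35.0 to 77.7 for counting error.

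Pycr1 had 2, 0 and 0 counts in Tsc1/p62Δhep, against 48, 105 and 22 in Tsc1Δhep. Every Tsc1Δhep library held more than any Tsc1/p62Δhep library, although the Tsc1Δhep libraries differed among themselves (2.08, 2.84 and 1.03 scaled CPM). The level by library totals was 61.0-fold lower in Tsc1/p62Δhep, with a counting interval of 16.6 to 507. The fitted log2 fold change of -5.30 ± 0.94 (SE), adjusted p 0.00794, depends on how a count of 0 is treated, and leaving out each library gave -8.48 to -4.74 with the call kept. The value of -8.48 was that without Tsc1/p62Δhep library 1, the only library of its group with a count. Pycr1 too passed the filter only through Tsc1Δhep, where it is high, so the kept call is no support.

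Pycrl, a cytosolic enzyme of the same reaction as Pycr1, stood at 19.5, 21.8 and 23.5 scaled CPM in Tsc1/p62Δhep, against 57.5, 48.0 and 26.6 in Tsc1Δhep (log2 fold change -1.03 ± 0.30 SE, adjusted p 0.0441). All 3 Tsc1Δhep libraries lay above the Tsc1/p62Δhep libraries, library 3 by the least. The Pycrl call was lost without Tsc1Δhep libraries 1 (0.0844) or 2 (0.130) or Tsc1/p62Δhep libraries 1 (0.163), 2 (0.141) or 3 (0.101), with limma (0.0573) and with no filter on low counts (0.0530).

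**Figure D3:**
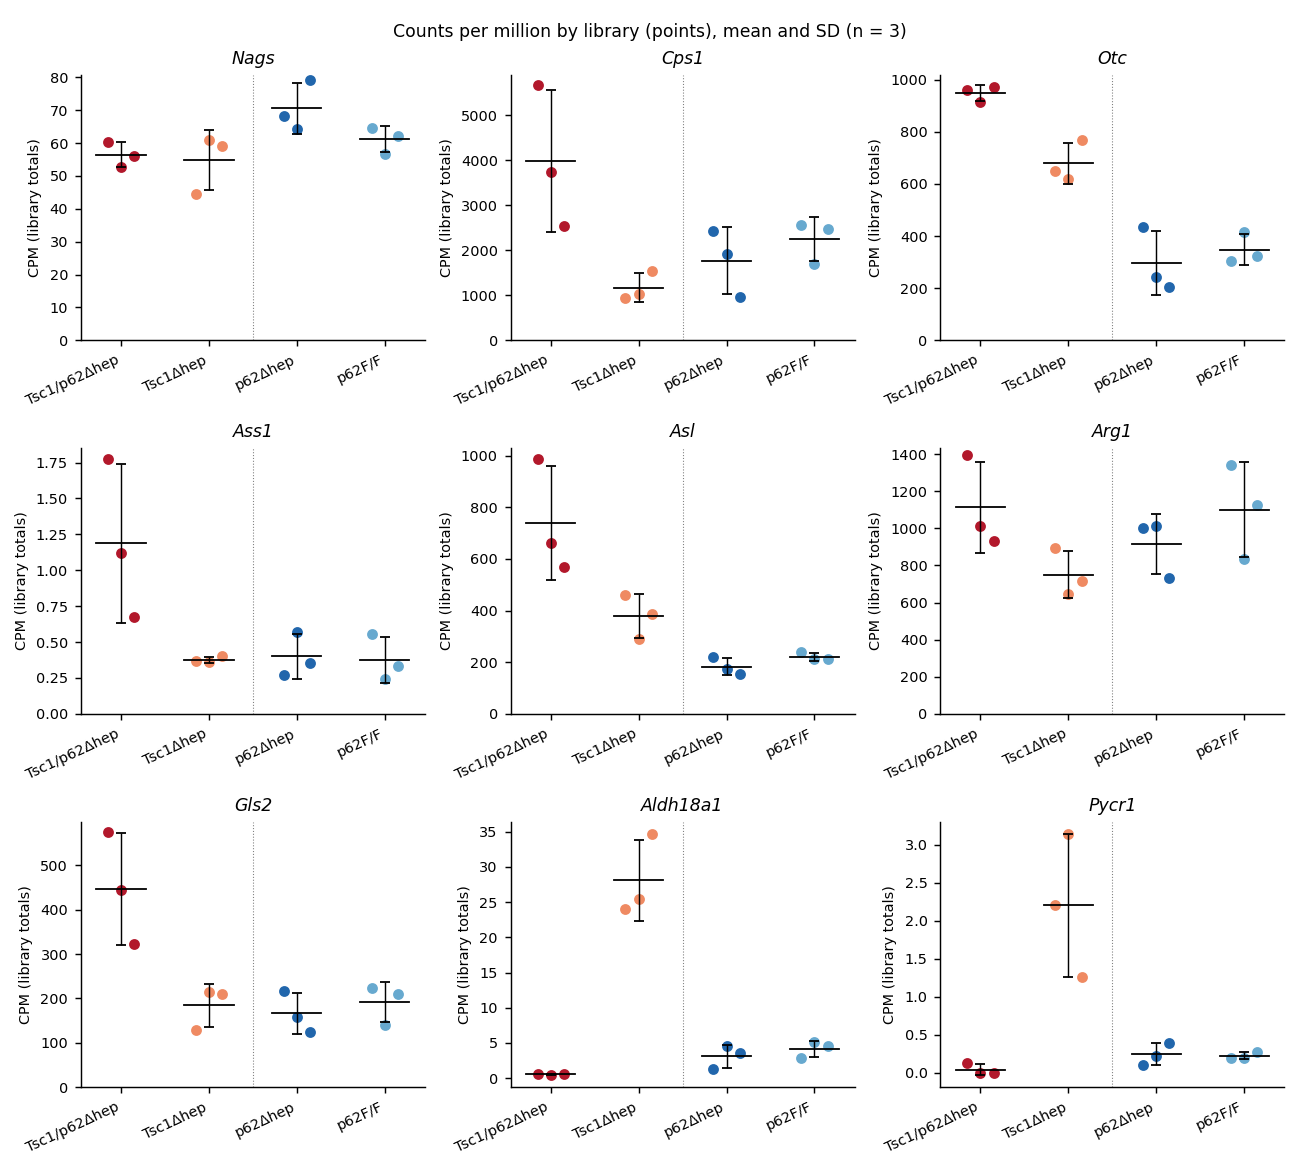
CPM by library totals (vertical axes, each from 0 or just below it) of the 9 genes in the 4 groups, each point a library, with the mean and SD of 3 libraries, and the dotted line parting the deposited tables. Aldh18a1 and Pycr1 are highest in Tsc1Δhep (28.1 and 2.20 CPM on average), whereas Cps1, Asl and Gls2 are highest in Tsc1/p62Δhep (3983, 739 and 447 CPM).

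Genes around these pathways were read from 6 lists chosen with earlier results of these data known. Of all genes tested between Tsc1/p62Δhep and Tsc1Δhep, 9.25% were called higher and 14.9% lower, 24.2% in either direction. Of 15 genes that feed or support the urea cycle, 8 were higher in Tsc1/p62Δhep than in Tsc1Δhep and 0 lower, with a median log2 fold change of 0.84, against -0.05 over all genes tested. They included Slc7a2, a transporter of cationic amino acids such as arginine (1813 ± 418 scaled CPM in Tsc1/p62Δhep and 427 ± 91.7 in Tsc1Δhep, SD, n = 3 each as for the means that follow), and Aqp9, a channel that passes urea and glycerol (693 ± 110.4 in Tsc1/p62Δhep and 218 ± 32.5 in Tsc1Δhep). They also included Car5a, the mitochondrial carbonic anhydrase that supplies bicarbonate to CPS1 (90.6 ± 9.88 in Tsc1/p62Δhep and 36.9 ± 4.54 in Tsc1Δhep), and Slc25a15, the mitochondrial ornithine carrier (394 ± 48.0 in Tsc1/p62Δhep and 197 ± 31.4 in Tsc1Δhep). Slc7a2, Aqp9 and Car5a kept their calls without each library in turn. The count of 8 became 3 without Tsc1Δhep library 2, Tsc1/p62Δhep library 1 or Tsc1/p62Δhep library 2, and ranged up to 10 without Tsc1Δhep library 3. With library totals alone it was 5.

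The enzymes that degrade proline stood higher where those that make it stood lower. Of the 9 listed proline and ornithine genes, 4 were higher and 2 lower, with a median log2 fold change of -0.45. The shares over all genes tested were 9.25% higher and 14.9% lower. Prodh, proline dehydrogenase, stood at 389, 323 and 239.7 scaled CPM in Tsc1/p62Δhep, against 67.2, 70.4 and 118 in Tsc1Δhep. All Tsc1/p62Δhep libraries lay above all Tsc1Δhep libraries (log2 fold change 1.89 ± 0.32 SE, adjusted p 0.00645), and the call held without each library. Aldh4a1, the next step of proline breakdown, followed with 597 ± 90.1 in Tsc1/p62Δhep and 241 ± 89.9 in Tsc1Δhep (1.31 ± 0.31 SE, adjusted p 0.0225), a call lost without Tsc1Δhep library 2 (0.0954) or Tsc1/p62Δhep libraries 1 (0.0951) or 2 (0.0807), and with library totals alone (0.0760). Of its exon bases, 32.5% are shared with another annotated gene on the same strand, so its counts are uncertain. Oat, ornithine aminotransferase, which links ornithine to the same intermediate, stood at 1522, 876 and 386 scaled CPM in Tsc1/p62Δhep, against 4.64, 23.9 and 53.3 in Tsc1Δhep. The groups lay far apart although both were spread widely (5.09 ± 0.95 SE, adjusted p 0.00936), and the adjusted p without Tsc1Δhep library 2 was 0.0506. Without Tsc1Δhep library 2 the list had 1 gene higher and 0 lower; without Tsc1/p62Δhep libraries 1, 2 and 3 it had 2, 2 and 3 higher and 0 lower each, without Tsc1Δhep library 1 it had 4 and 1, and without Tsc1Δhep library 3 it had 4 and 4. Other scalings and tools gave 3 to 4 higher and 1 to 4 lower.

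**Figure D4:**
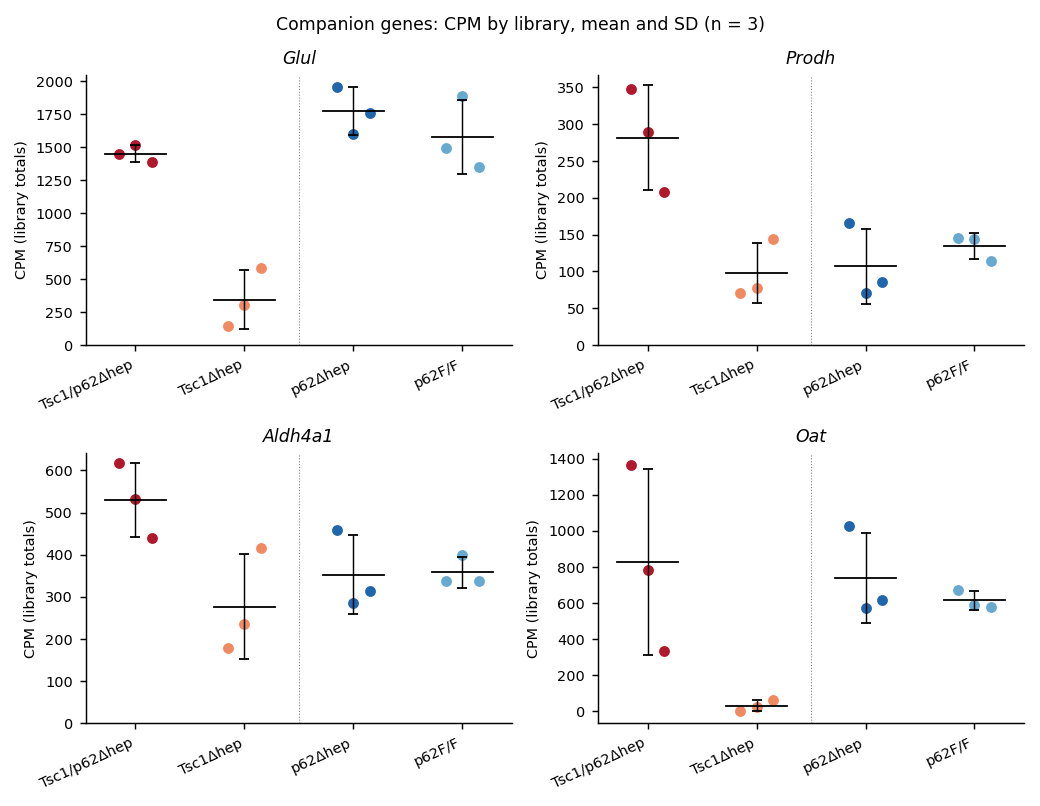
CPM by library totals (vertical axes) of Glul, Prodh, Aldh4a1 and Oat in the 4 groups, each point a library, with the mean and SD of 3 libraries. Glul and Oat average 1451 and 828 CPM in Tsc1/p62Δhep and are lowest in Tsc1Δhep (345 and 32.1 CPM).

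Of the 9 glutamine genes, 1 was higher and 3 were lower, where 9.25% of all genes tested were called higher and 14.9% lower. Glul, glutamine synthetase, the enzyme that captures ammonia left by the urea cycle in pericentral hepatocytes, stood at 1617, 1689 and 1604 scaled CPM in Tsc1/p62Δhep, against 134, 277 and 481 in Tsc1Δhep. The 3 Tsc1/p62Δhep libraries lay close together and the Tsc1Δhep libraries were low and uneven (2.46 ± 0.45 SE, adjusted p 0.00881). Ctps, which uses glutamine to make CTP, averaged 8.21 ± 1.39 in Tsc1/p62Δhep and 35.9 ± 14.3 in Tsc1Δhep (-2.13 ± 0.36 SE, adjusted p 0.00652). The Glul and Ctps calls held without each library. Of 9 arginine and polyamine genes tested, 1 was higher (Agmat, 1.39 ± 0.21 SE, adjusted p 0.00436) and 1 lower (Gatm, which starts creatine synthesis from arginine, -1.37 ± 0.32 SE, adjusted p 0.0209). These 2 calls of 9 are near the 24.2% of all genes called in either direction. The Gatm call was lost without Tsc1Δhep library 2 (0.0831) or Tsc1/p62Δhep libraries 1 (0.0785), 2 (0.1005) or 3 (0.0578). Without Tsc1Δhep library 2 or Tsc1/p62Δhep libraries 1 or 2, 2 glutamine genes were lower. Without Tsc1Δhep library 3, 5 glutamine genes and 4 arginine and polyamine genes were lower, and with library totals alone 5 and 3. With GC and length trends removed, 2 arginine and polyamine genes were higher and 0 lower.

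Among 11 regulators of these pathways, 3 were higher and 2 lower, beside 9.25% and 14.9% of all genes tested. Foxo1, a transcription factor restrained by insulin signalling, averaged 101 ± 22.4 scaled CPM in Tsc1/p62Δhep and 29.3 ± 10.3 in Tsc1Δhep (1.79 ± 0.33 SE, adjusted p 0.00853), and Myc, a growth-promoting factor, averaged 2.23 ± 1.11 in Tsc1/p62Δhep and 14.6 ± 6.22 in Tsc1Δhep (-2.70 ± 0.48 SE, adjusted p 0.00769). Both calls held without each library. Atf4, the transcription factor of the amino acid response, averaged 86.5 ± 13.4 in Tsc1/p62Δhep and 253 ± 96.3 in Tsc1Δhep (-1.55 ± 0.32 SE, adjusted p 0.0140), a call lost without Tsc1/p62Δhep libraries 1 (0.0768), 2 (0.0519) or 3 (0.0594). Hnf4a, a factor of hepatocyte identity, was not called (log2 fold change 0.56, adjusted p 0.121). Without Tsc1/p62Δhep library 1 the list had 1 gene higher and 1 lower, without Tsc1Δhep library 3 it had 5 and 2, and without Tsc1/p62Δhep libraries 2 and 3 it had 3 and 1 and 2 and 1. With GC and length trends removed it had 8 higher and 2 lower, and with all 12 libraries in 1 fit 5 and 2.

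Aldh18a1 and Pycr1 are known targets of ATF4. Of 18 other listed ATF4 targets, 12 were lower and 1 higher, with a median log2 fold change of -2.82. Over all genes tested, 14.9% were called lower and 9.25% higher. Mthfd2, a mitochondrial folate enzyme, averaged 1.11 ± 0.437 scaled CPM in Tsc1/p62Δhep and 41.3 ± 6.37 in Tsc1Δhep (-5.21 ± 0.35 SE, adjusted p 0.000466). Slc7a11, the cystine transporter, averaged 0.501 ± 0.444 in Tsc1/p62Δhep and 170.1 ± 86.3 in Tsc1Δhep (-8.41 ± 0.86 SE, adjusted p 0.00128). Fgf21, a hormone of fasting and stress, averaged 1.20 ± 1.13 in Tsc1/p62Δhep and 43.4 ± 6.45 in Tsc1Δhep (-5.16 ± 0.64 SE, adjusted p 0.00249). Nupr1, a stress-induced gene, averaged 1.90 ± 0.803 in Tsc1/p62Δhep and 96.2 ± 75.3 in Tsc1Δhep (-5.66 ± 0.71 SE, adjusted p 0.00251). These 4 calls held without each library. Slc7a11 and Fgf21 passed the filter on low counts only through Tsc1Δhep, where they are high, so this is no support for them. Phgdh, also listed, passed it only through Tsc1Δhep too, at 8.69 to 79.1 CPM by library totals there and 0.127 to 0.294 in Tsc1/p62Δhep. So did Asns, which had 1 count in its lowest Tsc1/p62Δhep library. The counts and the median of this list are therefore a description. The list is no single block: Gdf15 was higher (0.90 ± 0.22 SE, adjusted p 0.0239), and Sesn2, Shmt2 and Aars, with log2 fold changes of 0.07, 0.72 and 0.60, did not pass. Phgdh, Asns, Gdf15, Sesn2, Shmt2 and Aars are named after their values were seen. Leaving out each library gave 9 to 13 lower. The number higher was 3 without Tsc1Δhep library 3, 1 without Tsc1Δhep library 1, and 0 without Tsc1Δhep library 2 or any 1 Tsc1/p62Δhep library. Whether ATF4 bears on the Aldh18a1 and Pycr1 values was not tested.

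The cell markers of the 2 groups differed as well. The 12 pericentral markers summed to 15734 to 16407 CPM by library totals in Tsc1/p62Δhep, against 223 to 2865 in Tsc1Δhep, and the list holds Glul and Oat. The 8 periportal markers in the tables, of the zone where the urea cycle is most active, summed to 5825 to 8925 CPM in Tsc1/p62Δhep, against 5156 to 6812 in Tsc1Δhep. These sums overlap, but the markers differed in direction: 4 were called higher and 3 lower. For all genes tested, the shares called were 9.25% higher and 14.9% lower. Pck1 stood at 2784 to 4905 CPM in Tsc1/p62Δhep, against 329 to 1882 in Tsc1Δhep, and Hsd17b13 at 427 to 914 CPM in Tsc1/p62Δhep, against 1959.9 to 4982 in Tsc1Δhep. The 6 cholangiocyte markers summed to 75.2 to 114 CPM in Tsc1/p62Δhep, against 919 to 5563 in Tsc1Δhep. Spp1 carried most of that sum, with 67.9 to 103 CPM in Tsc1/p62Δhep, against 882 to 5504 in Tsc1Δhep. Of the 5 cholangiocyte markers tested, 0 were called higher and 2 lower. The 9 macrophage markers summed to 99.5 to 116 CPM in Tsc1/p62Δhep, against 268 to 424 in Tsc1Δhep. Of the macrophage markers, 0 were called higher and 4 lower, with a median log2 fold change of -0.11 and a range of -2.99 to 2.68. Lyz2 carried much of the difference in the sum, with 17.4 to 19.6 CPM in Tsc1/p62Δhep, against 85.6 to 267 in Tsc1Δhep. Pck1, Hsd17b13, Spp1 and Lyz2 are named after their values were seen. The 9 stellate markers summed to 194 to 255 CPM in Tsc1/p62Δhep, against 73.7 to 397 in Tsc1Δhep. Of the stellate markers, 0 were called higher and 5 lower, with a median log2 fold change of -1.86 and a range of -3.13 to 2.13. All markers of these lists had counts in both groups. The hepatocyte sum was 95113 to 117555 CPM in Tsc1/p62Δhep, against 54094 to 101879 in Tsc1Δhep. Tsc1Δhep library 1 had the lowest hepatocyte and pericentral sums and the highest cholangiocyte sum. Without it the 6 higher and 2 lower member calls were the same genes. That fit cannot show the part of these cells, since Tsc1Δhep libraries 2 and 3 also had low pericentral sums (1284 and 2865 CPM). Of the calls kept, Aldh18a1, Pycr1 and Ass1 had passed the filter only through the group where they are high. The part of these cells in the member values was not tested.

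The comparison of p62Δhep with p62F/F asks the same in livers with intact Tsc1. Of the 9 members, 7 passed the filter, since Ass1 and Pycr1 were too low, and 0 were called by edgeR, as were 0.0159% of 12567 genes. An unadjusted p below 0.05 was reached by 1020 genes and 0 members, and DESeq2 and limma called 0 members too. The libraries of p62Δhep and p62F/F overlapped for all 7, where they did not overlap for 12.8% of all genes, 6.17% higher and 6.65% lower. The log2 fold changes lay between -0.36 and 0.22, with a median of -0.26, and the lowest adjusted p was 0.712.

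Cps1 stood at 2239, 2039 and 996 scaled CPM in p62Δhep, against 2775, 1566 and 2417 in p62F/F. The p62Δhep libraries spanned more than the gap between the means (-0.36 ± 0.36 SE, adjusted p 0.832). Gls2 stood at 199.99, 169 and 129 scaled CPM in p62Δhep, against 242, 130.1 and 205 in p62F/F (-0.21 ± 0.26 SE, adjusted p 0.864). Aldh18a1 stood at 1.21, 4.82 and 3.72 scaled CPM in p62Δhep, against 3.16, 4.75 and 4.49 in p62F/F. Library 1 of p62Δhep was the lowest, library 3 lay within the p62F/F range and library 2 just above it (-0.35 ± 0.46 SE, adjusted p 0.874). Without p62Δhep library 1 the log2 value was 0.05. Pycr1 had 2, 4 and 10 counts in p62Δhep, against 4, 4 and 5 in p62F/F, a ratio of 1.18 by library totals with a counting interval of 0.532 to 2.67. Otc (-0.24 ± 0.24 SE), Asl (-0.27 ± 0.16 SE), Arg1 (-0.26 ± 0.27 SE) and Nags (0.22 ± 0.15 SE) did not pass either, and edgeR called no gene of the 6 lists. DESeq2 called 1 regulator and 3 ATF4 targets lower. Slc7a11, not called by edgeR, had 9, 0 and 21 counts in p62Δhep, against 285, 213 and 57 in p62F/F. It passed the filter only through p62F/F, where it is high, so these counts are a description. The intervals given above for the members do not show that those genes were equal in the 2 groups.

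Whether the difference between p62-deleted and p62-intact livers itself differed with Tsc1 was tested as an interaction over the 12 libraries, so that any scaling common to all libraries of 1 table drops out. A positive value means a higher difference where Tsc1 was deleted. Of 13231 genes 6.76% were positive and 9.32% negative past the threshold, 16.1% in all. Among the 9 members, 4 were positive: Cps1 (2.47 ± 0.53 SE, adjusted p 0.0110), Gls2 (1.83 ± 0.42, 0.0135), Asl (1.56 ± 0.36, 0.0138) and Otc (1.06 ± 0.33, 0.0464). Aldh18a1 (-5.00 ± 0.60, 0.000664) and Pycr1 (-5.51 ± 1.18, 0.0108) were negative. Pycr1 passed the filter only through Tsc1Δhep, the group where it is high, so its value is a description and supports no test of the difference. Arg1 (1.16 ± 0.40, 0.0647), Ass1 (1.88 ± 0.75, 0.105) and Nags (0.16 ± 0.24, 0.672) did not pass.

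The interaction calls of Cps1, Gls2, Asl and Aldh18a1 held without each of the 12 libraries in turn. The value of Pycr1 ranged from -8.57, without Tsc1/p62Δhep library 1, to -4.90. That of Otc was kept in 2 of the 12 fits, those without p62Δhep library 1 or Tsc1Δhep library 3. Its adjusted p was 0.0795, 0.104 and 0.0695 without p62F/F libraries 1, 2 and 3, 0.105 without p62Δhep library 2 or 3, 0.0547 and 0.0942 without Tsc1Δhep libraries 1 and 2, and 0.0906, 0.0840 and 0.0773 without Tsc1/p62Δhep libraries 1, 2 and 3. Arg1 passed without p62F/F library 2 or Tsc1Δhep library 1 (lowest adjusted p 0.0362) with DESeq2 (0.0193) and with GC and length trends removed (0.0303), and Ass1 passed with those trends removed (0.0494). Among the companions, Prodh (2.23 ± 0.44 SE, 0.00793), Oat (4.82 ± 0.97 SE, 0.00849) and Glul (2.26 ± 0.51 SE, 0.0133) also passed and held without each library.

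Set side by side across the tables by library totals, with no test, the members fell into several orders. Both groups with Tsc1 deleted are in 1 table and both with intact Tsc1 in the other. Loss of Tsc1 and a difference between tables cannot be told apart here. Aldh18a1 averaged 0.535 ± 0.113 CPM in Tsc1/p62Δhep, 28.1 ± 5.79 in Tsc1Δhep, 3.14 ± 1.65 in p62Δhep and 4.21 ± 1.14 in p62F/F (SD, n = 3 each). The lowest p62Δhep library, at 1.31 CPM, lay above the highest Tsc1/p62Δhep library, at 0.633, and the lowest Tsc1Δhep library, at 24.1, lay above every library of the other groups. Pycr1 averaged 0.0422 ± 0.0731, 2.20 ± 0.944, 0.244 ± 0.144 and 0.224 ± 0.0462 CPM in Tsc1/p62Δhep, Tsc1Δhep, p62Δhep and p62F/F. Its p62Δhep range overlapped those of Tsc1/p62Δhep and p62F/F, and its Tsc1Δhep range lay above the others.

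Cps1 averaged 3983 ± 1570.4 CPM in Tsc1/p62Δhep, 1173 ± 315 in Tsc1Δhep, 1764 ± 741 in p62Δhep and 2242 ± 485 in p62F/F. Its Tsc1Δhep range of 949 to 1533 lay below the p62F/F range of 1685 to 2570.3 and overlapped that of p62Δhep, and the lowest Tsc1/p62Δhep library overlapped p62F/F. Otc and Asl had another order. Otc averaged 949 ± 30.0 CPM in Tsc1/p62Δhep, 679 ± 78.8 in Tsc1Δhep, 295 ± 123 in p62Δhep and 348 ± 60.0 in p62F/F, and Asl averaged 739 ± 220.2, 379 ± 86.1, 183 ± 33.4 and 221 ± 15.1 CPM in the same groups. Every library of Tsc1/p62Δhep and of Tsc1Δhep held more of either gene than any library with intact Tsc1, which is also the split between the deposited tables.

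Gls2 averaged 447 ± 126 CPM in Tsc1/p62Δhep, against 184 ± 47.8 in Tsc1Δhep, 167 ± 46.3 in p62Δhep and 191 ± 45.002 in p62F/F, and these 3 overlapped. Arg1 varied less between groups than Cps1, Otc, Asl and Gls2, with 1112 ± 247, 751 ± 128, 916 ± 161 and 1100.1 ± 256 CPM in Tsc1/p62Δhep, Tsc1Δhep, p62Δhep and p62F/F, and Nags averaged 56.5 ± 3.81, 54.9 ± 9.08, 70.6 ± 7.67 and 61.3 ± 4.05. Per kilobase of the longest coding transcript, the order in p62F/F was Arg1 (745 CPM per kb), Cps1 (404), Otc (116), Asl (91.4), Gls2 (74.3), Nags (30.2), Aldh18a1 (1.19), Ass1 (0.222) and Pycr1 (0.0768).

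Across the 12 libraries the members did not follow a single pattern. The Pearson correlation of log2(CPM + 1) was 0.92 between Otc and Asl, 0.86 between Cps1 and Gls2, 0.80 between Cps1 and Arg1 and 0.89 between Aldh18a1 and Pycr1, and -0.76 between Cps1 and Aldh18a1. Otc and Cps1 had 0.37, and Otc and Arg1 0.01. These values describe 12 libraries in 4 groups and 2 tables, and differences between groups and tables enter them. Among 10998 genes with a mean of at least 50 counts, the gene most like Cps1 was Dpyd (0.93), a pyrimidine-degrading enzyme, followed by Hgd (0.93). Those most like Otc were Mxi1 (0.97) and Agfg2 (0.97), that most like Asl was Agxt2l1 (0.95), that most like Arg1 was Slc30a1 (0.89) and that most like Nags was Nr1h3 (0.91). Gls2 was most like Slc7a2 (0.91). Aldh18a1 was most like Dcaf15 (0.98) and Ddr1 (0.98), and Pycr1 like Nxpe3 (0.99) and Sh3bgrl3 (0.99).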

How the data were processed

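Gene counts of 12 mouse liver libraries were deposited by the authors as 2 tables of whole-number counts, per the file headers, 1 for Tsc1/p62Δhep and Tsc1Δhep and 1 for p62Δhep and p62F/F. Poly(A) RNA was made into directional libraries and sequenced single-end with 75 bases or paired-end, per the labels' protocols. The sources used here give no aligner, counting tool or use of strand. A human build, hg19, stands in the submitters' processing notes, whereas the tables hold mouse symbols, and none of its coordinates was used.

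Samples were grouped by their titles. Genes were filtered with filterByExpr (10 counts), scaled by TMM and tested with edgeR 4.0.16's quasi-likelihood test within a table (threshold 0.05 after Benjamini-Hochberg adjustment), and the interaction over all 12 libraries. The procedure was tested on simulated data. The alternatives were DESeq2 1.42.0, limma 3.58.1, RLE or no scaling, no filter, the replicate number as a block, each library left out and, chosen after seeing the data, removal of GC and length trends. Sequences came from GENCODE M21 and RefSeq GRCm38.p6; 98.36% of the tables' symbols matched GENCODE. Ass1 and its pseudogene were aligned with blastn 2.17.0.

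The members and lists were chosen with earlier results of these data known. Named genes were the 9 members, listed paralogs, up to 4 called genes a list with the lowest p, and the 5 genes most correlated with each member, of which not all are given. Slc25a15 and Hnf4a are named outside this rule, after their values were seen. No libraries of a group agreed within sampling noise. Results for some withheld genes are not reported here. Depth was 15792048 to 33377247 counts a library.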

Additional observations from a re-analysis of the deposited data

Results flagged for a closer look

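The difference between p62-deleted and p62-intact livers differed with Tsc1 past the threshold for 6 of the 9 members, of which Pycr1 is a description only. This was the interaction test over 12 libraries, where 16.1% of 13231 genes passed (6.76% positive and 9.32% negative). On the log2 scale, positive where the p62-deleted livers stood higher relative to their control in the Tsc1-deleted background, Cps1 had 2.47, Gls2 1.83, Asl 1.56 and Otc 1.06, and Aldh18a1 had -5.00 and Pycr1 -5.51. The Otc value passed in 2 of 12 fits with a library left out, and Cps1, Gls2, Asl and Aldh18a1 passed in all 12. Pycr1 passed the filter on low counts only through Tsc1Δhep, so its value is a description. It ranged from -8.57, without Tsc1/p62Δhep library 1, to -4.90 with a library left out, and was -1.34 with limma after removal of GC and length trends. Only p62F/F had no Cre, so any effect of Cre is part of each value, and its size was not tested.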

How the results depend on the processing

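For Tsc1/p62Δhep against Tsc1Δhep, Cps1 and Gls2 kept their call under all 15 alternatives run. Aldh18a1 and Pycr1 did too, but passed the filter only through Tsc1Δhep, where they are high, so this is no support for them. Arg1 lost it in 8, Otc in 7, Ass1 in 5 and Asl in 4, and Nags gained it with GC and length trends removed (adjusted p 0.0285). No member reversed there. For p62Δhep against p62F/F, 0 members were called under any of the 14 alternatives, and Aldh18a1, at -0.73 to 0.046 with a library left out, reversed (0.046) without p62Δhep replicate 1. The interaction reversed for Nags with library totals only (-0.17), was lost for Otc in 13 of 19 alternatives and held for Cps1, Gls2, Asl and Aldh18a1 in all 19. It was gained for Arg1 in 4 and for Ass1 with GC and length trends removed (adjusted p 0.0494). The cause was not tested.

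In Tsc1/p62Δhep against Tsc1Δhep, 1167 genes were higher and 1886 lower. DESeq2 gave 1775 higher, library totals only 576 higher and 3337 lower (14.7% higher, against 38.2%), all 12 libraries in 1 fit 2249 and 2952, and GC and length removal 2410 higher (56.0% higher). Members higher were 2 without Tsc1Δhep replicate 3 and Tsc1/p62Δhep replicate 1 together. With a library left out, genes higher ranged from 351 to 2686, genes lower from 760 to 3139 and members higher from 2 to 6. The replicate numbers did not pair the samples (correlations of same-numbered deviations from -0.13 to -0.08 there and from -0.53 to 0.03 between p62Δhep and p62F/F). With the replicate number as a block, 649 genes were higher and 1198 lower, and 3 members were higher, Ass1, Otc and Arg1 having lost the call. Between p62Δhep and p62F/F the block left 1 gene lower, and in the interaction it kept 3 members positive and 2 negative, Otc being lost.

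For p62Δhep against p62F/F, DESeq2 called 33 genes higher and 136 lower, limma 4 lower with or without GC and length removal, and all 12 libraries in 1 fit 1 lower. With a library left out, genes higher ranged from 0 to 1 and genes lower from 1 to 48. In the interaction, library totals only gave 419 positive and 2391 negative (14.9% positive, against 42.0%), and GC and length removal 1663 positive (54.4%). With a library left out, they ranged from 465 to 2401 positive and from 676 to 2551 negative. The low counts of Ass1 and Pycr1 limit what depth can show.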
